A study of Mus musculus with 12 samples.

Results

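The genes described are markers of Schwann cells and their myelin: Mbp, Prx, Pmp22, Erbb3, S100b, Gap43, L1cam and Gfra3. A probe set was taken where the annotation of the array gives it exactly 1 of these symbols, which yielded 17 of the 45037 probe sets tested. They belong to 7 of the 18193 genes with such a probe set: 8 probe sets for Mbp, 2 each for Erbb3, S100b and L1cam, and 1 each for Pmp22, Gap43 and Gfra3. No probe set carried the symbol Prx alone, so periaxin has no value here. The values come from 12 Affymetrix MG430.2A arrays of 1 colour, 3 in each of 4 groups of C57Bl6/CBA F1 mouse skin: tail skin 5 days after birth (P5 Tail), back skin 5 days after birth (P5 Back), tail skin 1 day after birth (P1 Tail) and back skin 1 day after birth (P1 Back). No group carried a treatment or an engineered allele. Dermis was lifted off the epidermis and digested to single cells before lysis, after incubation in EDTA for tail skin and in dispase-trypsin for back skin. This handling is described for P1 mice, where RNA came from triplicate animals, and for P5 mice it is not given in the sources used here. Site and separating solution therefore cannot be told apart, and where arrays of a group were not separate animals, p-values measure the spread between arrays alone.

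Schwann cells ensheathe the nerve fibres of the skin. Myelinating Schwann cells wrap a stretch of a large axon in compacted membrane, and this sheath is laid down in rodent nerves largely in the first weeks after birth. Non-myelinating Schwann cells hold bundles of thin axons, such as those of pain fibres, without making myelin. Axonal neuregulin, read by the receptor pair of ErbB2 and ErbB3, keeps the lineage alive and drives wrapping, and the transcription factors Sox10 and Egr2 (Krox20) switch on the genes of the sheath. Several of the markers are not particular to these cells. ErbB3 is also made by keratinocytes and melanocytes, S100b by cartilage and fat cells, and Gap43 and L1cam by neurones.

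Each deposited value is an RMA log2 value from which the median of its probe set over the 12 arrays has been taken away. Differences between arrays can be read from such values, but levels cannot, so no gene is set against another by level and no gene can be said to be near background. In what follows, a value is a centred log2 value averaged over the probe sets of a gene, and a difference is that of 2 group means. A gene is said to have risen or fallen where limma, fitted over all genes, gave an adjusted p under 0.05 (Benjamini-Hochberg).

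Directions are those of the array labels, as tail minus back and as P5 minus P1. Posterior Hox genes, which mark the hind end of the body, were lower in the arrays labelled tail for 7 of 10 genes at P5 and 7 of 10 at P1, with 0 higher at either age and medians of -1.35 at P5 and -1.43 at P1. Of 10 adipocyte genes, 3 at P5 and 9 at P1 passed as higher in tail by the labels. That is opposite to the direction the study gives for fat, and the labels were kept as they stand. Were the labels tail and back exchanged, every direction between the sites and the sign of the interaction would turn, and the age comparisons would trade sites. Whether they are exchanged was not tested. Arrays also differed in what other tissue they held: the mean of 13 cartilage genes was 2.09 in P1 Back 1, 1.78 in P1 Back 6 and 0.84 in P5 Back 3, and lay between -0.34 and 0.12 on the other arrays. The array P5 Tail 2 had the widest spread over all probe sets, with an SD of 0.496 against 0.227 to 0.338 on the others. In bulk samples such as these, fewer cells of a type and less RNA per cell cannot be told apart.

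Mbp, the myelin basic protein that seals the inner faces of the compacted membrane, was 3.95-fold higher at P5 than at P1 in the skin labelled back. Erbb3 was higher in P5 Tail than in P5 Back, and S100b was lower in P1 Tail than in P1 Back or P5 Tail. None of the 7 genes passed the test in more than 2 of the 4 pairwise comparisons, and the glial transcription factor Sox10 passed in none.

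**Figure D1:**
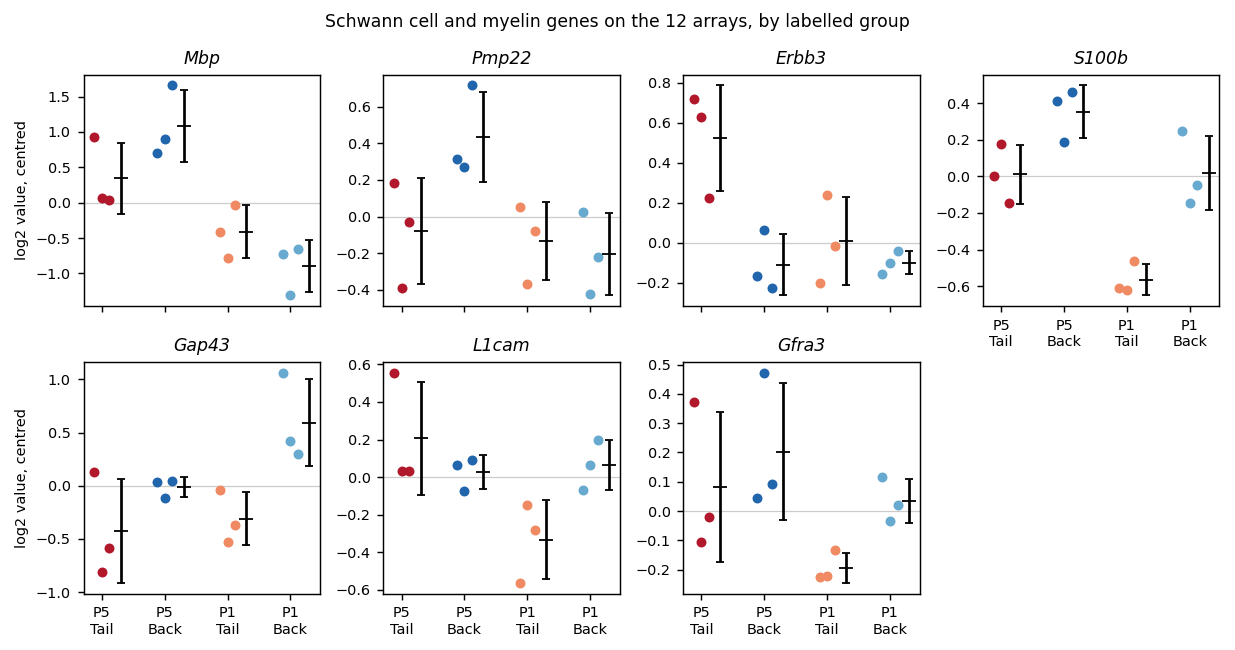
Centred log2 values of the 7 measured genes on the 12 arrays, each panel with its own vertical scale; points are arrays, and the bar beside them is the mean with SD of the 3 arrays of a group. Mbp spans 0.70 to 1.66 in P5 Back and -1.31 to -0.65 in P1 Back, while the P1 Tail arrays of S100b, at -0.62 to -0.47, lie below all others.

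Mbp read 0.70, 0.89 and 1.66 in the P5 Back arrays, against -0.73, -1.31 and -0.65 in the P1 Back arrays. All P5 Back values lie above all P1 Back values, with a gap wider than the range of either group. The group means were 1.09 ± 0.51 in P5 Back and -0.90 ± 0.36 in P1 Back (SD, n = 3 each), a difference of 1.98 ± 0.30 (SE; adjusted p = 0.0022 by limma). In the skin labelled tail, Mbp read 0.93, 0.07 and 0.03 at P5, against -0.41, -0.79 and -0.04 at P1. These groups do not overlap either, but the difference of 0.75 ± 0.30 (SE) missed the threshold (adjusted p = 0.17), and it was 0.46 without P5 Tail 2. The difference with age was smaller in tail than in back by 1.23 (95% interval 0.31 to 2.15), which did not pass the test of the interaction of site and age (adjusted p = 0.17). Between sites at the same age, Mbp differed by -0.74 (95% interval -1.39 to -0.10; adjusted p = 0.18) at P5 and by 0.48 (95% interval -0.16 to 1.13; adjusted p = 0.52) at P1, so the sign turned between ages without either difference passing.

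The 8 probe sets of Mbp did not move as 1. In back, 6 of them rose by 2.16 to 3.09 with age (adjusted p between 0.0014 and 0.0029 over all probe sets), where 2.3% of all probe sets passed. The other 2, 1425263_a_at and 1425264_s_at, differed by -0.10 (adjusted p = 0.96) and -0.35 (adjusted p = 0.55). Averaged over the 6, the P5 Back arrays read 1.03, 1.19 and 2.16 and the P1 Back arrays read -1.04, -1.81 and -0.93. The gene mean of Mbp averages these 6 with the 2 that did not pass. The 6 were picked by their change in these same arrays, so their mean is no separate measure of its size. In tail the 6 differed with age by 0.78 to 1.03 (adjusted p between 0.15 and 0.29). All 8 carry a suffix that marks probes shared with other transcripts or genes, so which transcripts of Mbp each group reads cannot be said from these values.

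**Figure D2:**
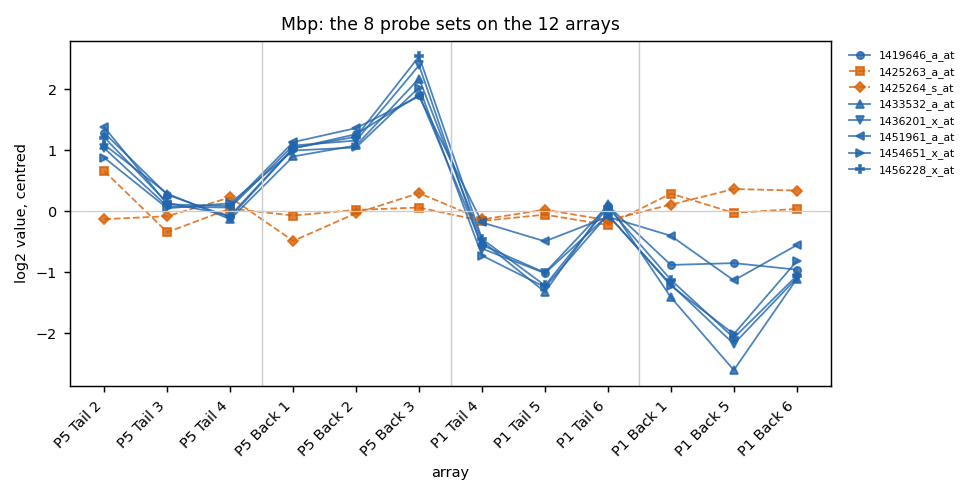
Centred log2 values of the 8 Mbp probe sets on each of the 12 arrays, ordered by group; lines join the values of a probe set and stand for no order of the arrays. The 6 blue probe sets move together, with means of 1.03 to 2.16 on the P5 Back arrays and -1.81 to -0.93 on the P1 Back arrays, and the 2 orange ones average -0.28 to 0.18 and 0.17 to 0.20 on the same arrays.

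Pmp22, a membrane protein of compact myelin whose dosage is altered in inherited neuropathies of humans, read 0.32, 0.27 and 0.72 in P5 Back, against 0.03, -0.42 and -0.22 in P1 Back. The groups do not overlap, yet the difference of 0.64 ± 0.18 (SE) narrowly missed the threshold (adjusted p = 0.068). In tail it read 0.18, -0.39 and -0.03 at P5 and 0.05, -0.37 and -0.08 at P1, with a difference of 0.05 (95% interval -0.33 to 0.44). Tail values lay below all back values at P5, by 0.51 ± 0.18 (SE) on average (adjusted p = 0.12). Both myelin proteins thus had their highest group mean in P5 Back, followed by P5 Tail, P1 Tail and P1 Back, and for Pmp22 the last 3, at -0.08 ± 0.29, -0.13 ± 0.21 and -0.21 ± 0.22 (SD, n = 3 each), did not differ beyond their spread.

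Of the 7 genes, 1 passed the test with age in back, where 4.25% of all genes did, and 1 passed in tail (S100b), where 5.3% did. The groups did not overlap for 3 of 7 genes in back (2 higher and 1 lower at P5), against 28% of all genes (14.4% higher and 13.6% lower), and for 4 of 7 in tail, all higher at P5, against 19.4% of all genes (11.1% higher). A count of 1 among 7 says little of the genes as a group beside such shares.

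Beside these, 18 other genes of the myelin sheath were measured. In back, 7 of the 18 rose with age and 0 fell, 17 of 18 differences were positive, and their median was 0.49, beside 0.01 for all genes. Pmp2, the fatty acid binding protein of peripheral myelin, read 1.70, 2.38 and 2.79 in P5 Back, against -0.71, -0.94 and -0.64 in P1 Back, an 8.31-fold difference (3.06 ± 0.24, SE; adjusted p = 4.5e-05). That is the widest gap in the list. Ugt8a, which makes the galactolipids of myelin, rose by 1.43 ± 0.29 (SE; adjusted p = 0.014), and Fa2h, which hydroxylates their fatty acids and also acts in keratinocytes and sebaceous glands, by 1.27 ± 0.28 (SE; adjusted p = 0.023). The others were Mal, a lipid raft protein (0.96), Cldn19, the tight junction claudin of Schwann cells (0.82), Gjc3, a gap junction connexin (0.74), and Ncmap, a protein of non-compact myelin (0.47). With 1 array left out, Ncmap (adjusted p = 0.044) passed in 3 of 12 fits and Mal (adjusted p = 0.037) in 7. Fa2h passed in 8, Ugt8a in 10, and Pmp2, Cldn19 and Gjc3 in 12 each. Without probe sets of shared sequence Mal missed the threshold (adjusted p = 0.055). In tail, 2 of the 18 rose (Fa2h by 2.54 and Ncmap by 0.70) and 0 fell, while 17 of 18 differences were again positive, with a median of 0.30 beside 0.04 for all genes. Genes of other cells moved with age in tail too: 6 of 10 adipocyte genes were lower at P5 (array means of 0.02 to 0.38 for P5 Tail against 0.98 to 1.51 for P1 Tail), and 2 of 13 keratinocyte genes were higher (-0.12 to 0.20 for P5 Tail against -1.22 to 0.10 for P1 Tail). Of 12 skeletal muscle genes 1 was lower (-0.79 to -0.28 for P5 Tail against 0.47 to 1.72 for P1 Tail), and of 12 macrophage and dendritic cell genes 2 were higher and 3 lower. Their part in the result was not tested. Pmp2 differed by 0.87 in tail (adjusted p = 0.053), and its difference with age was smaller in tail than in back by 2.18 (interaction, adjusted p = 0.0047).

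**Figure D3:**
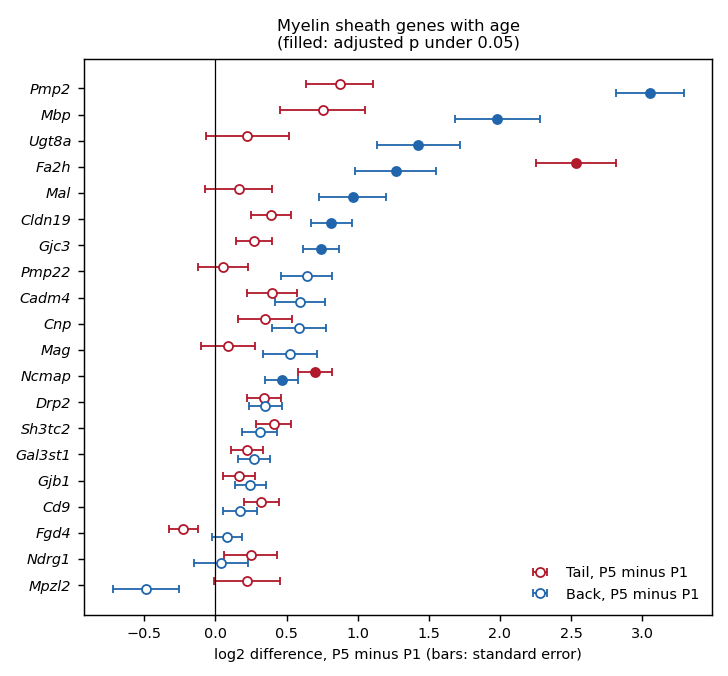
Difference of P5 minus P1 (log2, with SE) for Mbp, Pmp22 and the 18 other measured myelin sheath genes, red in tail and blue in back; filled points have an adjusted p under 0.05. In back 8 of the 20 points are filled, led by Pmp2 at 3.06 and Mbp at 1.98, and in tail 2 are, Fa2h at 2.54 and Ncmap at 0.70.

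These counts leaned on single arrays. The count of 7 in back was 3 without P5 Back 3 and 4 without any 1 of P5 Back 1, P1 Back 1 and P1 Back 5. It was 1 (Pmp2) without the 3 arrays high in cartilage genes, a setting added once the values were known, which leaves 1 array in P1 Back. Mbp itself passed without each of the 12 arrays in turn (1.70 to 2.17; adjusted p between 0.0013 and 0.012). Without the 3 cartilage-rich arrays its difference was larger, 2.11, and missed the threshold (adjusted p = 0.11). The count in tail was 5 without P5 Tail 3, where 1685 of all genes passed in place of 964.

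Genes of other cells moved with age in back as well. Of 12 genes that respond to tissue dissociation 10 were lower at P5, with array means of -1.05 to -0.54 in P5 Back and 0.65 to 0.84 in P1 Back. Of 13 keratinocyte genes 7 were lower (array means -0.65 to -0.21 in P5 Back, 0.63 to 0.93 in P1 Back), of 10 melanocyte genes 5 were higher (-0.06 to 0.21 in P5 Back, -0.82 to -0.65 in P1 Back), and of 10 adipocyte genes 6 were higher (-0.45 to -0.08 in P5 Back, -1.14 to -1.07 in P1 Back). The mean of 12 skeletal muscle genes was 1.06 in P5 Back 3, the array with the highest Mbp and Pmp22 values, against -1.59 in P5 Back 1 and -1.46 in P5 Back 2. Their part in the result was not tested. Of 18 axon and neurone genes 0 passed with age in back by limma. An unadjusted p under 0.05 was found for 3 of them and for 2441 of all 18193 genes. Sox10 differed by 0.24 (95% interval -0.02 to 0.49, adjusted p = 0.43).

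The 300 bases around the start (250 before to 50 after) of marker genes and of sheath genes that rose in back were taken from RefSeq (GRCm38.p6). Such a window was at hand for 4 of the 8 marker genes (Prx, Pmp22, S100b and L1cam) and for 5 of the 7 sheath genes that rose in back (Mal, Cldn19, Gjc3, Ncmap and Ugt8a). They were searched on both strands for the SOX cores ACAAAG (in 18.7% of 32851 promoter windows of this length) and ACAATG (12.6%), the letters that Sox10 and its relatives favour, and for the EGR core GTGGGCG (7.97%), that of Egr2 and its relatives. Cldn19 held the EGR core, printed in capitals, beginning 86 bases before its start, and the other windows held none of the 3. Pmp22 is shown by the first of its 4 windows, and Gjc3 as the gene whose values were most like those of Mbp. S100b is shown as the marker gene that passed the test in 2 comparisons.
Cldn19, chr4:119255191-119255490, plus strand: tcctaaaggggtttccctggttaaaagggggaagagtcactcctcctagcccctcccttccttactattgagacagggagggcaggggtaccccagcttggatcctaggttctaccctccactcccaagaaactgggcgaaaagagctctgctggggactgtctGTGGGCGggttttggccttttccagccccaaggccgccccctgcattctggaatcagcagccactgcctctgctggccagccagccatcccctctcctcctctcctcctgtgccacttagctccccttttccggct
Gjc3, chr5:137963049-137963348, minus strand: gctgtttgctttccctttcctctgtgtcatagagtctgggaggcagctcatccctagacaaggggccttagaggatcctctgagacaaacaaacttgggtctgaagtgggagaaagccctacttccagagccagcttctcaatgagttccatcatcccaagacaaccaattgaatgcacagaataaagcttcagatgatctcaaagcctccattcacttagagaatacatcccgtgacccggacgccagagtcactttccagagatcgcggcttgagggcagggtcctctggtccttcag
Pmp22, chr11:63128732-63129031, plus strand: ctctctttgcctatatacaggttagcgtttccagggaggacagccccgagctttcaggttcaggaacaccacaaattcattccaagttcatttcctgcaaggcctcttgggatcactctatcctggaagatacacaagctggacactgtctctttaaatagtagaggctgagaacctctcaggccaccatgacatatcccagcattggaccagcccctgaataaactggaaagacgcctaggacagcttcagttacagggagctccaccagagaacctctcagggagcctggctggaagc
S100b, chr10:76253586-76253885, plus strand: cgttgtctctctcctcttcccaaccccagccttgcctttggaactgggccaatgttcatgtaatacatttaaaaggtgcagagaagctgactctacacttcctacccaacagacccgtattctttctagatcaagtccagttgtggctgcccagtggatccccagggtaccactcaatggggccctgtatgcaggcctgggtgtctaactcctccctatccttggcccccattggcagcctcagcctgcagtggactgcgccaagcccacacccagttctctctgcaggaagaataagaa
A match describes the letters of a window and no more, and a window without one says nothing of the factor.

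Erbb3 encodes the receptor through which Schwann cells read neuregulin. It read 0.72, 0.63 and 0.22 in P5 Tail, against -0.17, 0.07 and -0.23 in P5 Back, and the groups do not overlap. The difference was 0.63 ± 0.15 (SE), or 1.55-fold (adjusted p = 0.021). At P1 it read -0.20, 0.24 and -0.02 in tail and -0.16, -0.10 and -0.04 in back, a difference of 0.11 (95% interval -0.21 to 0.43). The P5 Tail mean of 0.52 ± 0.27 (SD, n = 3) was above the other 3 group means, which ran from -0.11 to 0.01 and did not differ beyond their spread. In tail the difference with age was 0.52 ± 0.15 (SE; adjusted p = 0.065). The 2 probe sets differed between sites at P5 by 0.45 and 0.82, each with an adjusted p of 0.091 over all probe sets, of which 4.76% passed.

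The Erbb3 call was a narrow one. It was lost without P5 Tail 2 (0.54, adjusted p = 0.060), without P5 Tail 3 (0.58, adjusted p = 0.059), without P5 Back 1 (0.60, adjusted p = 0.079) and without P5 Back 3 (0.58, adjusted p = 0.088). Without both P5 Tail 2 and 3, likewise a setting added later, the difference was 0.33 (adjusted p = 0.30). Keratinocyte genes moved in part with it: 3 of 13 were higher and 1 lower in P5 Tail, with P5 Tail array means of -0.12 to 0.20 against -0.65 to -0.21 in P5 Back. Melanocyte genes overlapped, with P5 Tail means of -0.10 to 0.26 against -0.06 to 0.21 in P5 Back. By limma 0 of 10 passed, and 3 had an unadjusted p under 0.05, as had 3689 of all 18193 genes. The part of the keratinocyte genes in the result was not tested. Neither the partner receptor Erbb2 (0.31, adjusted p = 0.40) nor the ligand Nrg1 (-0.30, adjusted p = 0.25) passed in this comparison.

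Other nerve genes at P5 went both ways between the sites. Of 74 measured beside the 7, 6 were higher and 5 lower in P5 Tail than in P5 Back, and 1 of the 7 passed, where 6.91% of all genes did. Egr2, the transcription factor that drives myelination, read 1.57, 1.88 and 0.92 in P5 Tail, against -0.40, -0.25 and -0.16 in P5 Back, a difference of 1.73 ± 0.20 (SE; adjusted p = 0.00024). Fa2h read 2.32, 2.58 and 1.85 in P5 Tail, against 0.03, 0.10 and 0.39 in P5 Back (2.07 ± 0.28, SE; adjusted p = 0.00075). These were the largest differences toward tail among the nerve genes, and both genes were higher in P5 Tail than in P1 Tail too, Egr2 by 1.43 and Fa2h by 2.54. Other sheath genes lay on the other side. Pmp2 read 0.96, 0.28 and 0.32 in P5 Tail, against 1.70, 2.38 and 2.79 in P5 Back (-1.77 ± 0.24, SE; adjusted p = 0.00066), and Ugt8a differed by -1.80 ± 0.29 (SE; adjusted p = 0.0024). Fgd4, whose loss causes a neuropathy of myelin in humans, fell by 0.51. Of 13 measured genes listed here for immature and non-myelinating Schwann cells, 3 were higher in P5 Tail and 0 were lower. These were the adhesion molecules Chl1 (1.07) and Ncam1 (0.67) and the heat shock protein Cryab (0.52). The values do not show which cells made them. With the probe sets of shared sequence left out, Ncam1 (0.52, adjusted p = 0.21) and Cryab (0.07, adjusted p = 0.82) did not pass. The Ncam1 call was also lost without P5 Back 2 (adjusted p = 0.078) or P5 Back 3 (0.059), and the Cryab call without P5 Tail 2 (0.071), P5 Back 1 (0.11) or P5 Back 2 (0.13). Of 12 dissociation genes 5 were higher and 0 lower in P5 Tail, with P5 Tail array means of -0.28 to 0.21 against -1.05 to -0.54 in P5 Back. Of 13 keratinocyte genes 3 were higher and 1 lower. Their part in these differences was not tested. Sox10 differed by 0.12 (adjusted p = 0.63 by limma). Which cells the Egr2 difference reflects cannot be told in bulk samples.

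**Figure D4:**
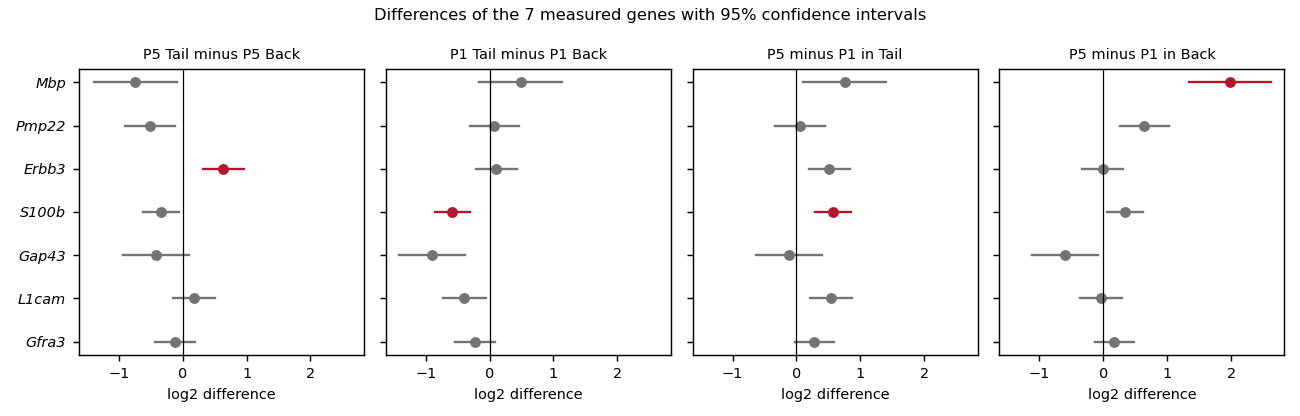
Log2 difference of each of the 7 measured genes in the 4 pairwise comparisons, with 95% confidence intervals; red points have an adjusted p under 0.05. There is 1 red point in each panel, Erbb3 at 0.63, S100b at -0.58, S100b at 0.58 and Mbp at 1.98 from left to right.

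S100b, a calcium-binding protein that is a standard label of Schwann cells, had its lowest values in P1 Tail. It read -0.61, -0.62 and -0.47 in P1 Tail, against 0.25, -0.15 and -0.05 in P1 Back. The difference was -0.58 ± 0.13 (SE), or 0.668-fold (adjusted p = 0.023). The P5 Tail arrays read 0.00, 0.18 and -0.15, above every P1 Tail array, a difference with age of 0.58 ± 0.13 (SE; adjusted p = 0.022). P1 Tail stands on one side of both comparisons, so they are not independent of each other. P5 Back had the highest values at 0.41, 0.19 and 0.46, narrowly above all P5 Tail values, and its difference to P5 Tail did not pass (-0.34 for tail minus back, adjusted p = 0.15). The means of P5 Tail and P1 Back, 0.01 and 0.02, did not differ beyond their spread.

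Of the 2 probe sets of S100b, 1419383_at passed in both comparisons (-0.56, adjusted p = 0.028, between sites at P1, and 0.60, adjusted p = 0.018, with age in tail), and 1434342_at gave like differences with a wider error (-0.61, adjusted p = 0.13, and 0.55, adjusted p = 0.14). Of all probe sets 2.72% passed between sites at P1 and 3.12% with age in tail. The site call at P1 was lost without P1 Tail 4 (adjusted p = 0.081), P1 Tail 5 (0.065), P1 Tail 6 (0.053), P1 Back 1 (0.11) or P1 Back 6 (0.069), with differences of -0.63 to -0.47. The age call in tail was lost without P1 Tail 4 (adjusted p = 0.086) or P1 Tail 5 (0.059). Without the 3 cartilage-rich arrays the site difference was -0.42 (adjusted p = 0.74). Cartilage and fat genes moved with the site at P1: 4 of 13 cartilage genes were lower in P1 Tail (array means -0.23 to -0.18 in P1 Tail, 0.05 to 2.09 in P1 Back), and 9 of 10 adipocyte genes were higher (0.98 to 1.51 in P1 Tail, -1.14 to -1.07 in P1 Back). The highest S100b value of P1 Back was in P1 Back 1, which also had the highest cartilage mean. With age in tail, where S100b was higher at P5, 6 of the 10 adipocyte genes were lower at P5 (0.02 to 0.38 in P5 Tail, 0.98 to 1.51 in P1 Tail) and 1 of the 13 cartilage genes was higher. Their part in either result was not tested.

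Gap43, a growth cone protein of extending axons that immature and non-myelinating Schwann cells also make, read -0.04, -0.53 and -0.37 in P1 Tail, against 1.06, 0.42 and 0.30 in P1 Back. The groups do not overlap, and the difference of -0.91 ± 0.24 (SE) missed the threshold by little (adjusted p = 0.056). The P5 Tail arrays read 0.13, -0.81 and -0.59 and those of P5 Back 0.04, -0.12 and 0.05, and in back all P5 values were below all P1 values (-0.61 ± 0.24, SE; adjusted p = 0.26). Gap43 was thus the 1 gene of the 7 whose back arrays were lower at P5 than at P1 with no overlap. Its P1 difference passed without P5 Tail 2 (adjusted p = 0.015) or P5 Tail 3 (adjusted p = 0.045), where the difference itself is the same and the shared estimate of the spread is smaller. These were 2 of the 12 fits with 1 array left out. Across the 12 the P1 difference ran from -1.05 to -0.67, with an adjusted p of up to 0.22. The smallest, -0.67, was without P1 Back 1, which also had the highest cartilage mean.

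L1cam, an adhesion molecule through which Schwann cells and axons bind each other, read 0.56, 0.03 and 0.03 in P5 Tail, against -0.56, -0.15 and -0.28 in P1 Tail. The groups do not overlap, with a difference of 0.54 ± 0.15 (SE; adjusted p = 0.064). Of its 2 probe sets, 1450435_at passed over all probe sets (0.60, adjusted p = 0.031) and 1421958_at did not (0.48, adjusted p = 0.24). At P1 the tail arrays lay below the back arrays, which read -0.07, 0.07 and 0.20 (-0.40 ± 0.15, SE; adjusted p = 0.23). In P5 Back it read 0.06, -0.08 and 0.09, so that P5 Back and P1 Back overlapped and differed by -0.04 (95% interval -0.37 to 0.29). With 1 array left out, the age difference in tail passed in 2 of 12 fits. These were without P5 Tail 3 or P5 Tail 4, at 0.62 (adjusted p = 0.042 and 0.043). The 12 fits ran from 0.36 to 0.63, with an adjusted p of up to 0.23, and the lowest was without P5 Tail 2.

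Gfra3, the coreceptor that lets the Ret kinase answer artemin, had the narrowest range of the 7. It read 0.37, -0.11 and -0.02 in P5 Tail, 0.04, 0.47 and 0.09 in P5 Back, -0.23, -0.22 and -0.13 in P1 Tail and 0.12, -0.03 and 0.02 in P1 Back. Its widest pairwise difference was 0.28 with age in tail (95% interval -0.03 to 0.58; adjusted p = 0.29). Of the ligands of this family, Artn, which encodes artemin, fell by 0.85 (adjusted p = 0.0091) and Gdnf by 0.55 (adjusted p = 0.018) in P1 Tail relative to P1 Back, and Nrtn, which encodes neurturin, differed by -0.17 (adjusted p = 0.66). The Gdnf call was lost with the replicate block (adjusted p = 0.098) and without P1 Tail 4 (0.080), P1 Tail 6 (0.093), P1 Back 1 (0.064) or P1 Back 5 (0.092). The Artn call was lost without P1 Back 6 (0.056). Ret differed there by 0.41 (adjusted p = 0.33).

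At P1, 1 of the 7 genes passed between the sites, where 3.97% of all genes did, and 4 did not overlap (S100b, Gap43, L1cam and Gfra3), all lower in P1 Tail, against 30.2% of all genes (17.6% lower). At P5, 3 of the 7 did not overlap, Erbb3 higher and Pmp22 and S100b lower in tail, against 20.6% of all genes (11% higher and 9.58% lower). Of the 74 other nerve genes, 3 rose and 3 fell in P1 Tail relative to P1 Back. Stmn2, a microtubule protein of growing axons (0.82), the neurotrophin receptor Ntrk3 (0.68) and Scn7a, a sodium channel of non-myelinating Schwann cells (0.85), were higher. The Ntrk3 call was narrow (adjusted p = 0.048) and held in 2 of the 12 fits with 1 array left out, where the adjusted p reached 0.20. Adgrg6, the adhesion receptor (Gpr126) that Schwann cells need to begin myelination, read -1.13, -1.22 and -0.70 in P1 Tail, against 0.32, 0.09 and 0.28 in P1 Back (-1.25 ± 0.17, SE; adjusted p = 0.00076). It was lower in tail at P5 too, where it read -0.43, -0.09 and -0.72, against 0.42, 0.30 and 0.47 in P5 Back (-0.81 ± 0.17, SE; adjusted p = 0.0100). The P5 call of Adgrg6 held in 12 of 12 fits with 1 array left out. It was lost with trend and robust variances (adjusted p = 0.051) and with array weights (0.073). None of the 18 other myelin sheath genes passed between the sites at P1 by limma, where 4 had an unadjusted p under 0.05, and with array weights 4 passed. Over all 18193 genes 2630 had such an unadjusted p, and 3650 passed with array weights in place of 722. Genes of other cells moved with the site at P1 beside cartilage and fat: 8 of 10 melanocyte genes were higher (array means of 0.00 to 0.37 for P1 Tail against -0.82 to -0.65 for P1 Back), 3 of 13 keratinocyte genes were lower (-1.22 to 0.10 for P1 Tail against 0.63 to 0.93 for P1 Back), and 4 of 12 dissociation genes were lower (-0.52 to 0.17 for P1 Tail against 0.65 to 0.84 for P1 Back). Their part in the result was not tested. Without the 3 cartilage-rich arrays 0 of the 74 passed at P1 by limma, where 85 of all genes passed and 1231 had an unadjusted p under 0.05.

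None of the 7 genes passed the interaction of site and age by limma, where 2.87% of all genes did. An unadjusted p under 0.05 was found for 2615 of all 18193 genes and for 4 of the 7 (Mbp, Pmp22, Erbb3 and L1cam). The estimates were -1.23 for Mbp and -0.59 for Pmp22, and 0.53 for Erbb3 and 0.58 for L1cam. For the first pair the difference with age was thus larger in back, and for the second pair larger in tail, without passing the adjusted threshold. The receptor Ngfr, high in immature and non-myelinating Schwann cells, passed in no comparison, its widest difference being -0.34 between the sites at P1 (adjusted p = 0.32). The hedgehog receptor Ptch1, listed for its answer to desert hedgehog from Schwann cells, fell with age by 0.71 in tail (adjusted p = 0.0092). It fell by 0.71 in back too (adjusted p = 0.0099). Which cells this reflects cannot be told in bulk samples. The tail call was lost with array weights (adjusted p = 0.055), only the arrays compared (0.055) and the replicate block (0.16). The back call was lost with that block (0.21) and without P5 Back 2 (0.060) or P5 Back 3 (0.052).

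Across the 12 arrays, the genes whose values ran most like those of each gene were ranked by Pearson's r over all 18193 genes, as a description in which the arrays share sites and ages. Gjc3 (r = 0.97), the kinase gene Dclk3 (0.95) and Pmp2 (0.93) ran most like Mbp, and Mal (0.96), Mical1 and Spsb4 most like Pmp22. For both myelin proteins the nearest gene of the whole array was a gene of the myelin sheath list. The nearest genes of the others were on no nerve list: Gcnt2 (0.97) for Erbb3, Col8a1 (0.92) for S100b, Rcan2 (0.97) for Gap43, Mvd (0.97), an enzyme of cholesterol synthesis, for L1cam, and Tmem147 (0.94) for Gfra3.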

How the data were processed

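RNA of mouse skin dermis was measured on 12 Affymetrix MG430.2A arrays in 4 groups of 3, taken from the sample labels. RMA was run by the authors in GeneSpring 13X. The deposited values are taken as log2 because RMA gives log2; no base is stated with them. They are also centred, the median of each of the 45101 probe sets being 0 within 1e-06. The centring is not described in the sources used here. Array medians ranged from -0.0232 to 0.0141, so values were used without another normalisation. The number of arrays limits the precision.

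After 64 control probe sets were left out, 45037 were fitted; 34945 had 1 gene symbol in the platform annotation, 932 several and 9160 none, and 34741 of the first matched RefSeq genes (GRCm38.p6) by gene identifier. Probe sets of 1 symbol were averaged into 18193 genes. All 12 arrays entered 1 fit of 4 groups in limma 3.58.1 (lmFit, eBayes; R 4.3.3) without covariates, with Benjamini-Hochberg adjustment over all genes, or over all probe sets for probe sets, and a threshold of 0.05. The direction was tail minus back or P5 minus P1, and the interaction was the tail minus back difference at P5 less that at P1. The procedure was tested on simulated data.

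The genes and lists were chosen with earlier results of these data known. All 8 marker genes were named; from each nerve list, up to 4 called genes with the largest difference per comparison, and Sox10, Egr2 and Ngfr; lists of other cells were given by counts; for each marker gene, the genes most alike by Pearson's r over the 12 arrays, up to 3. Erbb2, Nrg1 and Ret (receptor partners and a ligand) and Cldn19 are named outside this rule, after their values were seen. Alternatives were another centring, variance model, array weights, only the arrays compared, the replicate number as a block, the methods' t-test, probe sets without shared-sequence suffixes, single probe sets, each array left out, and, added after seeing the data, without 3 arrays high in cartilage genes (P1 Back 1, P1 Back 6 and P5 Back 3) and without P5 Tail 2 and 3.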

Additional observations from a re-analysis of the deposited data

Results flagged for a closer look

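In 6 of the 74 other nerve genes the difference between tail and back was not the same at P5 as at P1, by limma's test of the interaction of site and age (P5 difference less P1 difference, adjusted p under 0.05), where 2.87% of all genes passed. None of the 7 marker genes was among them. An unadjusted p under 0.05 was found for 4 of the 7, and for 2615 of all 18193 genes.

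The interaction of Pmp2, a myelin protein, was -2.18 (adjusted p = 0.0047), with group means of 0.52 in P5 Tail, 2.29 in P5 Back, -0.35 in P1 Tail and -0.76 in P1 Back. That of the transcription factor gene Egr2 was 1.61 (adjusted p = 0.0094), with means of 1.46 in P5 Tail, -0.27 in P5 Back, 0.03 in P1 Tail and -0.09 in P1 Back. These ran in opposite directions, Pmp2 being highest in P5 Back and Egr2 in P5 Tail. Other lists passed the interaction too. Of 12 dissociation genes 8 passed as positive and 0 as negative (median 1.64), and of 13 keratinocyte genes 5 and 0 (median 1.33). Of 10 adipocyte genes 7 passed as negative and 0 as positive (median -1.96), and of 10 melanocyte genes 3 and 0 (median -0.91). Their part in the result was not tested.

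Tac1, the substance P precursor gene, had an interaction of 1.27 (adjusted p = 0.0015), and its P5 Tail arrays, at 0.95, 1.14 and 1.03, lay above all other arrays. The adhesion molecule Chl1 had an interaction of 1.37 (adjusted p = 0.023), the artemin gene Artn 1.04 (adjusted p = 0.029), and the neurotrophin receptor Ntrk2 -0.76 (adjusted p = 0.032). Without each array in turn, Pmp2, Egr2 and Tac1 passed 12 of 12 times, Chl1 6, Artn 5 and Ntrk2 4 times.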

How the results depend on the processing

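The rise of Mbp with age in back held its sign in 20 of 20 alternatives on genes and passed in 17 of them, including each array left out (1.70 to 2.17). It missed with the methods' t-test (1.98, adjusted p = 0.095), without the 3 cartilage-rich arrays (2.11, adjusted p = 0.11) and with the replicate block (below). Its 8 probe sets all have suffixes of shared sequence, so without such probe sets Mbp has no value and 0 marker genes were called with age in back. The call of Erbb3 between sites at P5 passed in 12 of 21 alternatives, that of S100b between sites at P1 in 13 of 21, and that of S100b with age in tail in 13 of 21, all with the same sign. The methods' filter on the 20% of genes with the lowest level was not run, since centring removes levels.

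The main counts of marker genes called were 1 in each pairwise comparison and 0 in the interaction, and those of the 74 other nerve genes were 11 between sites at P5, 6 between sites at P1, 8 with age in tail, 8 with age in back and 6 in the interaction. With array weights, 0 marker genes were called between sites at P5, 4 at P1, 0 with age in tail and 2 with age in back, and 24, 4 and 25 other nerve genes at P1, with age in tail and with age in back. Over all 18193 genes, array weights called 662 at P5, 3650 at P1, 433 with age in tail and 2136 with age in back. The main fit called 1257, 722, 964 and 773, so the counts with array weights partly follow those of all genes. With trend and robust variances, 2 marker genes were called at P1, 2 with age in tail and 2 with age in back, beside 718, 871 and 731 of all genes. With only the arrays compared, 0 were called at P5, 0 with age in tail and 2 with age in back, and 3 and 19 other nerve genes with age in tail and back. Over all genes this setting called 713 at P5, 315 with age in tail and 1526 with age in back. The methods' t-test called 0 marker genes and 0 other nerve genes after Benjamini-Hochberg adjustment in the 4 pairwise comparisons. At an unadjusted p under 0.05 it called 1, 3, 1 and 2 marker genes at P5, at P1, with age in tail and with age in back, and 18, 20, 14 and 32 other nerve genes. In the same order it called 2286, 3653, 1845 and 3603 of all 18193 genes at that p.

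Without the 3 cartilage-rich arrays, limma called 0 marker genes in each pairwise comparison, and 6 other nerve genes at P5, 0 at P1, 1 with age in back and 0 in the interaction; fewer arrays also gave fewer calls over all genes, 17 in place of 773 with age in back. Without P5 Tail 2 and 3 it called 0 marker genes at P5, 2 at P1, 0 with age in tail and 2 with age in back, and 14 other nerve genes with age in back. With 1 array left out, marker genes called ran from 0 to 1 at P5, 0 to 2 at P1, 0 to 3 with age in tail, 1 to 2 with age in back and 0 to 0 in the interaction. Other nerve genes ran from 9 to 15 at P5, 4 to 7 at P1, 5 to 12 with age in tail, 3 to 12 with age in back and 3 to 7 in the interaction. They were 3 with age in back without P5 Back 3, and 5 without P5 Back 2, P1 Back 1 or P1 Back 5. In the interaction they were 3 without P5 Back 2, P5 Back 3, P1 Tail 6, P1 Back 5 or P1 Back 6, and with age in tail 5 without P1 Tail 4. Marker genes with age in tail were 3 without P5 Tail 4, 2 without P5 Tail 3 and 0 without P1 Tail 4. Over all genes these fits called 1422, 1685 and 472 with age in tail, in place of 964.

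Replicate numbers are shared by only 2 pairs of tail and back arrays at each age. Deviations from the group means correlated at 0.173 and -0.021 in the P5 pairs and 0.264 and -0.014 in the P1 pairs. Pairs of unlike number ran from -0.133 to 0.093 at P5 and from -0.336 to 0.384 at P1. So few pairs cannot show whether arrays of the same number came from the same animal. With the replicate block, 0 marker genes were called at P1, 0 with age in tail and 0 with age in back, where Mbp differed by 1.55 (adjusted p = 0.092), and 3 and 2 other nerve genes with age in tail and back. Calls over all genes with age in back were 285 with this block, in place of 773.

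Differences that turned their sign were uncalled ones near 0, and Mbp in 2 of its probe sets. Erbb3 with age in back (-0.009) was 0.008 with array weights, -0.096 to 0.049 with 1 array left out (0.049 without P5 Back 3), 0.049 without the cartilage-rich arrays and 0.123 by probe set 1434606_at. Pmp22 with age in tail (0.053) was -0.054 with array weights, -0.188 with the replicate block and -0.078 to 0.209 with 1 array left out (-0.078 without P5 Tail 2), and between sites at P1 (0.074) it was -0.033 to 0.192 (-0.033 without P1 Back 5). L1cam with age in back (-0.038) was 0.077 with the replicate block and -0.106 to 0.028 with 1 array left out (0.028 without P1 Back 6). Gap43 with age in tail (-0.114) was -0.390 to 0.081 (0.081 without P5 Tail 3), Erbb3 between sites at P1 (0.108) was -0.007 to 0.212 (-0.007 without P1 Tail 5), and Gfra3 at P5 (-0.120) was -0.265 to 0.014 (0.014 without P5 Back 2). The Gfra3 interaction (0.107) was -0.054 with array weights, -0.037 to 0.242 with 1 array left out (-0.037 without P5 Tail 2) and -0.015 without the cartilage-rich arrays. Mbp by probe sets 1425263_a_at and 1425264_s_at was 0.115 and 0.079 between sites at P5 (gene -0.744), -0.247 and -0.357 at P1 (gene 0.484), -0.096 and -0.345 with age in back (gene 1.98), and 0.362 and 0.436 in the interaction (gene -1.23).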
